A study of Mus musculus with 24 samples.

Results

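Members of the Rab, Arl, Arf, Vps and Snx families, which run the traffic of membranes between the compartments of a cell, were followed through lists of RNA peaks that compare immunoprecipitation of the RNA-binding protein STAU2 with input in mouse embryonic cortex. The set was chosen by symbol: every protein-coding gene of the mouse annotation (GENCODE on GRCm38) whose symbol is Rab, Arl, Arf, Vps or Snx followed by a digit, leaving out Arl6, Arl6ip genes and Arl13b. That rule gave 161 of 21992 protein-coding genes, of which 69 carry a Rab symbol, 21 Arl, 6 Arf, 35 Vps and 30 Snx. A member counted as listed on a day when a peak of that day shared at least 1 bp with one of its exons on the same strand. The rule used no measured value, but the choice of these families was made with results of the same lists known.

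Rab, Arf and Arl proteins are small GTPases that switch between a GTP-bound form, which sits on a membrane and recruits effectors, and a GDP-bound form, which is held in the cytosol. Vps proteins were named after vacuolar protein sorting in yeast and build the complexes that sort cargo at endosomes (ESCRT, retromer) or tether membranes before fusion (HOPS, CORVET, GARP). Sorting nexins (Snx) bind phosphoinositide lipids on endosomes and help to sort and return cargo. In the developing cortex these genes serve cell polarity, the migration of newborn neurons and the growth of their processes. STAU2 binds double-stranded RNA and is known for carrying messenger RNAs in neurons and for the unequal sharing of RNA between dividing progenitors.

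STAU2 was immunoprecipitated from whole cortex lysate of mouse embryos of 4 ages, from E11.5 to E17.5 in steps of 2 days, and RNA from the precipitate (RIP) and from the input lysate was sequenced on each day, with 3 libraries of each kind. The labels give no strain or genotype, every group is untreated cortex, and each replicate pooled the cortices of 1 litter. The authors deposited 1 pair of peak lists a day, for the plus and the minus strand, with no value for a replicate. Neither the depth nor the spread over replicates is known, and no difference between days could be tested. In time order, which "by day" means throughout, the lists held 6530, 5871, 10265 and 6341 peaks. The sources used here do not say whether a peak means that the RIP held more of the RNA than the input, and a difference between days cannot be told apart from one in depth, in preparation or in how much of the RNA was made. Since cortex was lysed whole, fewer cells of a type and less RNA per cell cannot be told apart either. Of 10 marker genes of cortical progenitors and neurons, 8 had a peak on some day (3, 6, 7 and 2 by day), and of 13 markers of vessels, blood and meninges 7 did (1, 6, 2 and 0 by day). The part that such cells had in the lists of E13.5 was not tested.

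The stretches that recurred on most days show what stood behind the counts. Within the 3' UTR, the part of a messenger RNA after the stop codon, 1 position in the set was covered on all 4 days. It lay in Rab11a, the GTPase of recycling endosomes, where the 4 peaks shared 25 bases (GRCm38, chr9:64715548-64715572, minus strand). In Rab2a, a GTPase of traffic between the endoplasmic reticulum and the Golgi, the peaks of E11.5, E13.5 and E17.5 shared 31 bases, of which 30 are shown (chr4:8607363-8607392, plus strand). In Rab3a, a GTPase of synaptic vesicles, those of the 3 later days shared 173 bases, of which the central 30 are shown (chr8:70758208-70758237, plus strand). Capitals mark bases common to all the days named; sequences are those of the GENCODE transcripts, 5' to 3'.
Rab11a: GTGTGGGCTTGCATAGATGACTATG
Rab2a: AGGCACGCCATGCCACTTACTCTTCCCTTA
Rab3a: TACATAGCTCCACCCAGCTCGGCCGTGGTG

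Coding sequence (CDS) held the recurrent positions of a few other members, and 4 of those peaks are shown because the same bases were listed on 2 days; capitals mark the bases shared with the other day. Vps16, a core subunit of HOPS and CORVET, had its E17.5 peak at chr2:130443298-130443384 (plus strand), rank 102 of 6341 by the authors' p-value, and shared 49 bases with its E15.5 peak. Rab11fip3, an effector of Rab11, had a 118-base peak at E15.5 (chr17:26068761-26068878, minus strand) that contained the 54-base peak of E17.5, and a 100-base peak at E17.5 (chr17:26068909-26069008) that contained the 49-base peak of E15.5. The 118-base peak of Rab11fip3 folded by RNAfold with 66 paired bases and an energy of -38.1 kcal/mol. The 87-base peak of Vps16 folded with -15.6 kcal/mol and 42 paired bases. Rab33a, a Golgi GTPase, had a 287-base peak at E17.5 (chrX:48529649-48529935, plus strand) around its whole E13.5 peak of 75 bases.
Vps16 at E17.5: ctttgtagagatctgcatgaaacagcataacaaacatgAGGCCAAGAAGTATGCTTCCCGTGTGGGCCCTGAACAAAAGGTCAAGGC
Rab11fip3 at E15.5: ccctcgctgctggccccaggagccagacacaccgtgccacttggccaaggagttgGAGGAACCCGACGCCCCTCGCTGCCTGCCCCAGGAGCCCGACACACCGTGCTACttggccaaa
Rab11fip3 at E17.5: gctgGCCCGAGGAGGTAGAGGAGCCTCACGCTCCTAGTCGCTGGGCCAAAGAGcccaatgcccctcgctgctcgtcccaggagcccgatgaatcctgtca
Rab33a at E17.5: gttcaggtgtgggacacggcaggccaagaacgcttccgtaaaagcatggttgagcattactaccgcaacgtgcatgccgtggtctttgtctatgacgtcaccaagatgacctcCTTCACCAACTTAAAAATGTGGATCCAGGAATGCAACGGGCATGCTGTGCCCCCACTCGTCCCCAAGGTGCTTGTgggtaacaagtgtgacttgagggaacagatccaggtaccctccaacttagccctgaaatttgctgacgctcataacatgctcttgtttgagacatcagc

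Several CDS peaks of the GTPases lay over bases that code for the parts of the protein that hold GTP. Of 23 CDS peaks of Rab, Arf and Arl GTPases that lay on a single exon and spanned at most 300 bases, 4 held bases of the phosphate-binding loop (a glycine, any 4 residues, a glycine, a lysine and a serine or threonine, in frame) and 4 others held bases of the guanine-recognition motif after it (an asparagine or threonine, a lysine, any residue and an aspartate). The motifs define such GTPases and were searched for after the sequences had been seen. How often a peak placed anywhere in the CDS of these genes would touch a motif was not computed. The counts therefore show no preference of the peaks for the motifs. Of 4919 CDS peaks of all protein-coding genes, 17 (0.346%) held bases of either motif. Most of these genes code for no such protein, so that share is no measure of what to expect in the GTPases. All 24 bases of the loop were covered in Rab23 (chr1:33723887-33723991, plus strand, E15.5), 21 in Rab3d (chr9:21915795-21915845, minus, E13.5), 11 in Rab22a (chr2:173661442-173661509, plus, E13.5) and 1 in Rab14 at E11.5. The guanine motif was covered in Arf5 (chr6:28425742-28425834, plus, E15.5), Arl3 (chr19:46542458-46542526, minus, E15.5) and the Rab33a peak above, and in part in Rab11b at E15.5. Capitals mark the motif's bases.
Rab3d, loop: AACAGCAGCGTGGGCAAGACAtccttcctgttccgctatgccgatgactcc
Rab23, loop: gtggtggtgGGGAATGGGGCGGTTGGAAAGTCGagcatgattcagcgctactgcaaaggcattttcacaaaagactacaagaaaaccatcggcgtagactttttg
Rab22a, loop: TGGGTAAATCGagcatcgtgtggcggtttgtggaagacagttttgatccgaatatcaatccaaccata
Arf5, guanine motif: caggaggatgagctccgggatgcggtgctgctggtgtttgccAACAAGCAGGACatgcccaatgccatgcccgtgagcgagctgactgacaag
Arl3, guanine motif: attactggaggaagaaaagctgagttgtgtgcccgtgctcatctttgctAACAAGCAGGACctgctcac

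Over the 4 days, 90 of the 161 members (55.9%) had an exonic peak, where 30.1% of all protein-coding genes did. At E11.5 the count was 27 members (16.8%, against 9.06% of all protein-coding genes), and at E13.5 it was 28 (17.4%, against 11.7%). The list of E15.5 held 65 members (40.4%, against 19.8%) and that of E17.5 held 46 (28.6%, against 13.5%). The share of members thus lay above that of all genes on each day, with the narrowest gap at E13.5, and it peaked with the longest list, that of E15.5. The median length of exons was 3813 bp for members and 3492 bp for all protein-coding genes. Among genes between 2522 and 6107 bp, the quartiles of the members, 49 of 81 members (60.5%) and 33.7% of the 9431 protein-coding genes had a peak. The 71 members without a peak had longer exons (median 4571 bp) than the 90 with one (3657 bp). The part of exon length, and of how much of each RNA was made, in the members' share was not tested.

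**Figure D1:**
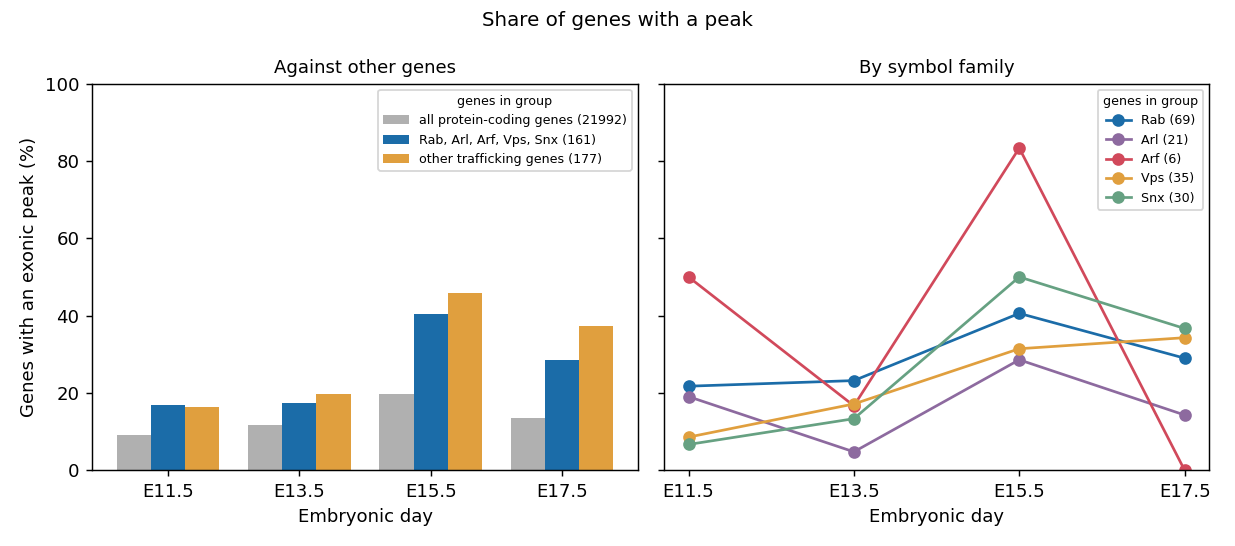
Share of genes with an exonic peak (y axis, percent) by embryonic day (x axis): on the left all 21992 protein-coding genes, the 161 members and 177 other trafficking genes as bars, on the right the 5 symbol families as points joined by lines. The members lie above all genes on each day, and the Arf family runs from 5 of 6 genes at E15.5 to 0 at E17.5. With 6 genes, that 0 cannot be told apart from the share of all genes (13.5%).

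Exonic peaks on all 4 days were found for 6 members (3.73%, against 1.77% of all protein-coding genes): Rab1a, Rab2a, Rab2b, Rab7, Rab11a and Snx3. A further 11 members were listed on 3 days and 36 on 2 days (6.83% and 22.4%, against 4.82% and 9.11% of all protein-coding genes). Another 37 were listed on a single day (23.0%, against 14.4%). The 11 were Arl8a, Rab3a, Rab6b, Rab11b, Rab18, Rab21, Rab35, Snx11, Vps25, Vps36 and Vps37b. Among members of a single day, 6 belonged to E11.5 (Arl2bp, Arl5a, Rab5a, Rab11fip2, Rab31 and Vps54), 3 to E13.5 (Snx2, Vps37c and Vps37d), 20 to E15.5 and 8 to E17.5. The last were Rab3c, Rab3il1, Rab11fip4, Snx13, Snx21, Vps9d1, Vps11 and Vps50. The split of single-day genes by day is not available over all protein-coding genes. Between them the members carried 261 peaks: 36, 40, 118 and 67 by day. Rab7 had the most with 11, followed by Rab18 with 10 and Rab6b with 9, while 29 members had a single peak.

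**Figure D2:**
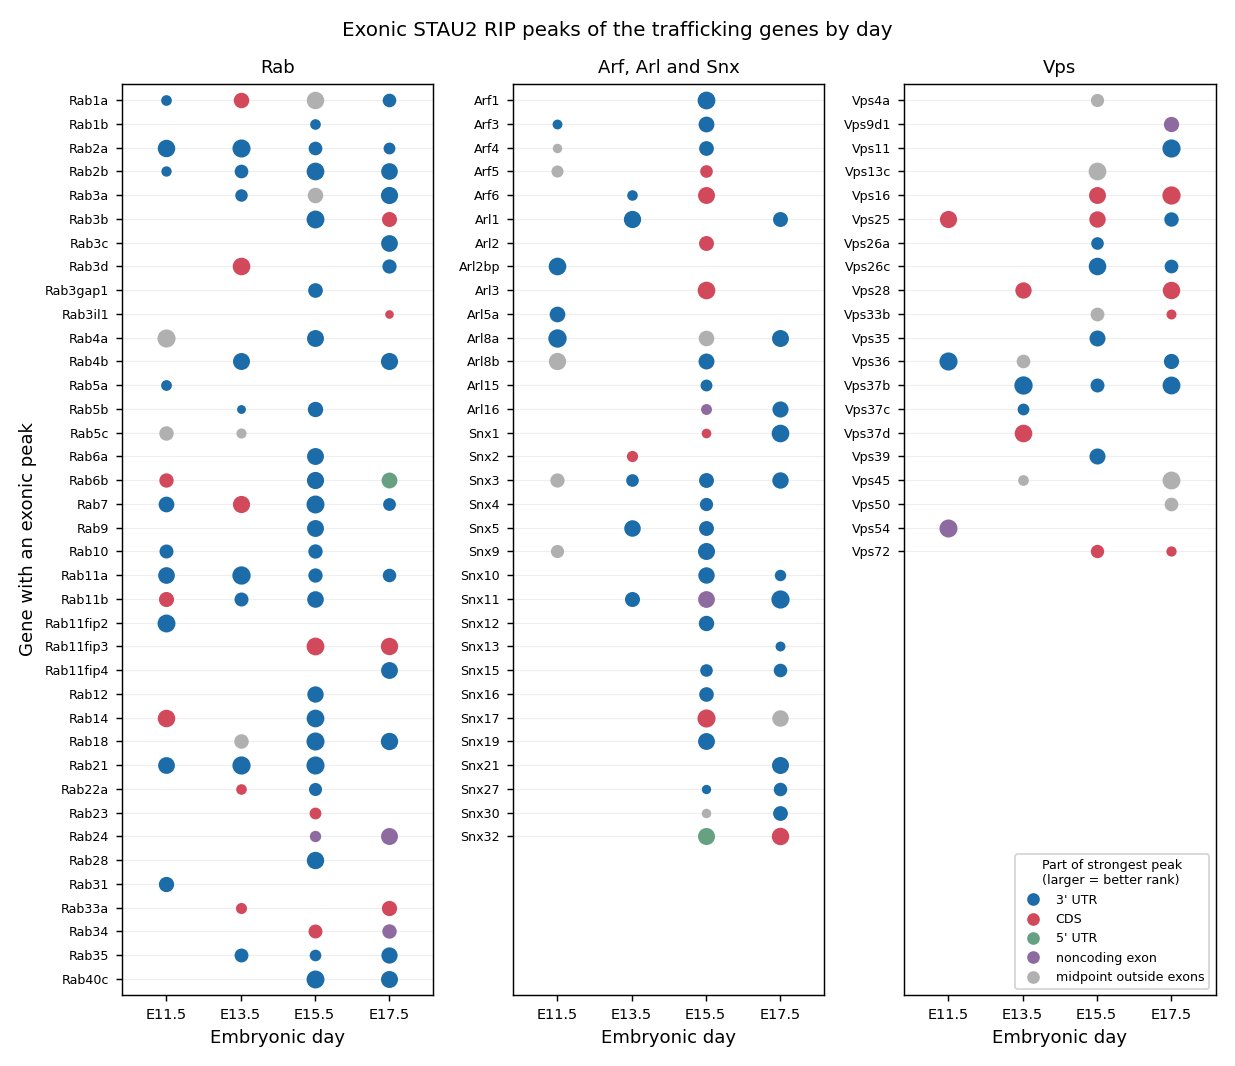
Every member with an exonic peak (rows, 90 genes) by embryonic day (columns); a dot stands for the gene's strongest peak of the day by the authors' p-value, larger for a better rank, and its colour for the part of the transcript at the peak's midpoint. Most dots are blue (3' UTR), the column of E15.5 is the fullest with 65 genes, and 6 genes have a dot in each column.

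Ranks by the authors' p-value within a day place the members among the strong and the weak peaks of the lists. At E11.5 the strongest member peak was that of Arl8a, a GTPase that couples lysosomes to kinesin, in the 3' UTR (rank 21 of 6530). Vps36, an ESCRT-II subunit (rank 245), and Rab4a, a GTPase of fast recycling (rank 246), followed. The Rab4a peak had its midpoint outside exons and was 34.6% exonic, while the 3' UTR peak of Rab4a that day ranked 2554. At E13.5 Vps37b, an ESCRT-I subunit, led with rank 28 of 5871, before Rab11a (rank 54), Rab21, an early endosome GTPase known for integrin traffic (rank 141), and Rab2a (rank 230). At E15.5, in the longest list, Rab21 led with rank 415 of 10265, ahead of Snx17, which returns receptors from endosomes (rank 421), Rab18 (rank 476) and Rab7, the GTPase of late endosomes (rank 608). At E17.5 the strongest peaks were those of Vps16 (rank 102 of 6341), Snx11 (rank 133) and Vps11, another core subunit of HOPS and CORVET (rank 156). Counted from the strongest, the median member peak stood by day at 35.5%, 55.0%, 48.4% and 44.4% of the list; over all protein-coding genes it was 51.5%, 49.6%, 49.2% and 49.1%. Members thus lay nearer to the top at E11.5 and, by a smaller margin, at E17.5, and below the middle at E13.5.

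Among Rabs of the secretory pathway and exocytosis, 14 of 28 had a peak on some day: 5, 7, 11 and 11 by day. That is 17.9%, 25%, 39.3% and 39.3%, against 9.06%, 11.7%, 19.8% and 13.5% of all protein-coding genes. Rab1a, which acts between the endoplasmic reticulum and the Golgi, was listed with best ranks of 5575, 2247, 1323 and 3758 from E11.5 to E17.5. Its E13.5 peak lay in the CDS and those of E11.5 and E17.5 in the 3' UTR, while the strongest peak of E15.5 had its midpoint outside exons. Rab2a had 1, 3, 2 and 1 peaks by day, each in the 3' UTR, with best ranks of 824, 230, 5960 and 4815. Rab2b, its paralog, ranked 5754, 3416, 922 and 1482, so that the better ranks of Rab2a fell on the 2 earlier days and those of Rab2b on the 2 later ones. The authors' deposited signal of these best peaks was 112.6, 61.1, 120.4 and 348.9 for Rab2a and 7.51, 19.5, 16.9 and 43.5 for Rab2b. The scaling of the signal between days is not stated, so only the order of the genes within a day can be read: Rab2a was higher on each.

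The Rab3 GTPases, which prime vesicles for exocytosis, were listed from E13.5 on. Rab3a had peaks on the 3 later days (best ranks 4118, 3887 and 1075), Rab3b at E15.5 (726) and E17.5 (2757), and Rab3c at E17.5 alone (1408). The Rab3a peak of rank 3887 had its midpoint outside exons and was 11.5% exonic. Rab3d had a CDS peak at E13.5 (rank 629) and a 3' UTR peak at E17.5 (3321). None of the 4 was listed at E11.5 and all 4 were at E17.5, when 9.06% and 13.5% of all protein-coding genes were. With 4 genes, the lack of a peak at E11.5 cannot be told apart from the share of all genes. Rab6b, a Golgi GTPase found mainly in neurons, had peaks in 3 parts of its transcript: the CDS at E11.5, the 3' UTR at E15.5 and the 5' UTR at E15.5 and E17.5. Its widely expressed paralog Rab6a had 1 peak, in the 3' UTR at E15.5. Rab8a and Rab8b, GTPases of traffic to the plasma membrane, had none, nor had the melanosome and granule GTPases Rab27a and Rab27b.

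Of 16 Rabs of early and recycling endosomes, 8 were listed on each of the first 3 days, 3 at E17.5 and 12 on any day. That is 50% on each of the first 3 days and 18.8% at E17.5. All protein-coding genes were listed at 9.06%, 11.7%, 19.8% and 13.5% by day, so the E17.5 share of the group was near that of all genes. Only Rab4b, Rab11a and Rab35 had a peak at E17.5. Rab11a ranked 1505, 54, 5305 and 3817 from E11.5 to E17.5 by its best peak. Rab11b was listed on the first 3 days with best ranks of 2800, 3215 and 2486. Rab21 ranked 1423, 141 and 415 on the same 3 days, each time in the 3' UTR, and had no peak at E17.5. The 3 Rab5 paralogs, which control fusion of early endosomes, split over days. Rab5a was listed at E11.5, Rab5b at E13.5 and E15.5, and Rab5c at E11.5 and E13.5. The E13.5 peak of Rab5c, 622 bp wide, had its midpoint outside exons and was 4.34% exonic. Rab4a was listed at E11.5 and E15.5, and Rab4b at E13.5 and E17.5; the exons under the Rab4b peaks also belong to the predicted gene Gm21983, so its peaks cannot be told apart from that gene's. Rab15, Rab17, Rab20 and Rab25 had no peak.

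Of 15 Rabs of late endosomes, lysosomes and autophagy, 1, 1, 7 and 3 were listed by day (6.67%, 6.67%, 46.7% and 20%). All protein-coding genes were listed at 9.06%, 11.7%, 19.8% and 13.5%. The count was thus highest with the longest list. The 1 gene each of E11.5 and E13.5 cannot be told apart from the share of all genes. The 7 genes of E15.5, the only ones of this group listed on any day, were Rab7, Rab9, Rab12, Rab23, Rab24, Rab28 and Rab40c. Rab7 was the member of this group at E11.5 (rank 2302), at E13.5 (best rank 1002) and, beside Rab24 and Rab40c, at E17.5 (4257). Reads may be shared with its processed pseudogene Rab7-ps1, which had peaks of its own at E11.5, E13.5 and E15.5. Of 9 effectors and regulators named after a Rab, 5 were listed on some day (55.6%, against 30.1% of all protein-coding genes). Among them were the Rab11 effectors Rab11fip2 (E11.5, rank 417), Rab11fip3 (E15.5 and E17.5, best ranks 847 and 920) and Rab11fip4 (E17.5, rank 1331). The others were the GTPase-activating subunit Rab3gap1 (E15.5) and the exchange factor Rab3il1 (E17.5). Rab11fip3 and Rab11fip4 shared E17.5; Rab11fip2 shared no day with either.

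Arf GTPases, which recruit vesicle coats, showed the widest swing of any family: 3, 1, 5 and 0 of 6 genes by day. Of all protein-coding genes 9.06%, 11.7%, 19.8% and 13.5% were listed by day. Arf1, Arf3, Arf4, Arf5 and Arf6 all had a peak at E15.5, with best ranks of 859, 3467, 4794, 7056 and 2027. Arf1, Arf3 and Arf4 had theirs in the 3' UTR, Arf5 in the CDS, and Arf6, which acts at the plasma membrane, in both. Arf2 had no peak on any day. With 6 genes, the swing rests on few genes and has no test, and the 0 of E17.5 cannot be told apart from the share of all genes.

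Among the Arl GTPases 8 of 17 were listed, with counts of 3, 1, 6 and 3 by day. That is 17.6%, 5.88%, 35.3% and 17.6%, against 9.06%, 11.7%, 19.8% and 13.5% of all protein-coding genes. Arl8a had 3 peaks at E11.5, none at E13.5 and then 2 on each day (best ranks 21, 3782 and 1248). Arl8b, the paralog that also links lysosomes to kinesin, had peaks at E11.5 and E15.5 with best ranks of 988 and 3350. Its 2 peaks at E11.5 had their midpoints outside exons and were 13.04% and 0.996% exonic. Arl1, a trans-Golgi GTPase, was the only Arl gene at E13.5 (rank 903) and recurred at E17.5 (best rank 2818) at the same place in its 3' UTR. Arl2 and Arl3, which release lipid-modified cargo from its carriers, had CDS peaks at E15.5 (ranks 4586 and 1023). Arl2bp, a partner of Arl2, was listed at E11.5 (rank 665).

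ESCRT complexes bud cargo into the lumen of endosomes, and 7 of their 9 subunits with a Vps symbol were listed: 2, 5, 3 and 4 by day. That is 22.2%, 55.6%, 33.3% and 44.4%, against 9.06%, 11.7%, 19.8% and 13.5% of all protein-coding genes. The ESCRT-I subunits made up most of the E13.5 list, with Vps28 (rank 1637), Vps37b (28), Vps37c (4481) and Vps37d (614). Vps37a, the fourth Vps37 paralog, had no peak. Vps37b kept a 3' UTR peak at E15.5 (rank 5688) and E17.5 (448). Vps25 and Vps36 of ESCRT-II were both listed on 3 days, but the Vps25 peaks lie over exons that Ramp2 shares on the same strand, so their gene cannot be told apart. Vps36 ranked 245 at E11.5 with a 3' UTR peak of 100 bp, and 2627 at E17.5, while its E13.5 peak of 1940 bp had its midpoint outside exons.

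Of 8 subunits of HOPS and CORVET and their relatives, 0, 0, 3 and 3 were listed by day (all protein-coding genes 9.06%, 11.7%, 19.8% and 13.5%); with 8 genes, a count of 0 on the 2 earlier days cannot be told apart from the share of all genes. Vps16 had a peak on both later days. Vps33b, a relative of the HOPS subunit Vps33a, did too, but its E15.5 peak of 1057 bp was 1.42% exonic. The others were Vps39 at E15.5 (rank 3207) and Vps11 at E17.5 (rank 156). Of 5 genes of retromer, which returns receptors from endosomes, and of the related retriever complex (Vps35l), 2 were listed, Vps26a (rank 7064) and Vps35 (rank 3270), both in the 3' UTR at E15.5 alone. Vps26c, also of retriever, was listed at E15.5 (rank 1162) and E17.5 (best rank 3651). GARP and EARP had Vps54 at E11.5 (best rank 328, with 3 peaks) and Vps50 at E17.5. Of the 4 Vps13 lipid transfer genes, Vps13c alone was listed, through 3 peaks at E15.5 of which at most 2.50% lay in exons, although the median exonic length of the group was 19537 bp. Vps72, which despite its symbol is a subunit of chromatin remodelling complexes, had 2 CDS peaks at E15.5 and 2 at E17.5.

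Sorting nexins were listed for 18 of 30 genes, 2, 4, 15 and 11 by day. That is 6.67%, 13.3%, 50% and 36.7%, against 9.06%, 11.7%, 19.8% and 13.5% of all protein-coding genes. Those with a BAR domain, which bend membranes into tubules, came to 1, 2, 6 and 3 of 12 by day, and the others to 1, 2, 9 and 8 of 18. Snx3, which recruits retromer to early endosomes, was listed on each day. Its E11.5 peak was 23650 bp wide with 0.795% of it in exons, and that of Snx9, the other E11.5 member, was 1432 bp wide and 2.93% exonic. On the 3 later days the 3' UTR of Snx3 was covered, with best ranks of 4036, 4628 and 1680. Without peaks wider than 5000 bp Snx3 has no E11.5 peak. Snx11 stood at ranks 2569, 2276 and 133 on the 3 later days. Snx17 had a CDS peak of 50 bp at E15.5 (rank 421) beside a 3' UTR peak (rank 647), and both it and Snx27 were listed again at E17.5. Snx27, another return factor that works with retromer, had peaks of the 3' UTR on those 2 days that overlapped by 14 bp. Snx1, Snx2 and Snx5, partners in the retromer-linked coat, were listed on E15.5 and E17.5, on E13.5, and on E13.5 and E15.5 in that order.

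From one day to the next, the longest list of changes was the gain at E15.5. Between E11.5 and E13.5, 18 of the 45 members listed on either day were gained (40.0%, against 46.4% of the 3718 protein-coding genes listed on either day) and 17 were lost (37.8%, against 30.7%). Between E13.5 and E15.5, 48 of 76 were gained (63.2%, against 50.7%) and 11 lost (14.5%, against 16.7%). Between E15.5 and E17.5, 15 of 80 were gained (18.8%, against 20.3%) and 34 lost (42.5%, against 45.6%). With lists of equal length the step to E15.5 came to 34 gained and 14 lost, and the step to E17.5 to 23 gained and 26 lost. For equal lists these steps are not available over all protein-coding genes, so those counts cannot be set beside a share of all genes. The 48 gained at E15.5 included Arf1, Arf3, Arf4 and Arf5, the retromer genes Vps26a and Vps35, and Snx1, Snx4, Snx9, Snx10, Snx12, Snx15, Snx16, Snx17, Snx19, Snx27, Snx30 and Snx32. The 34 lost at E17.5 included the 5 Arf genes, both retromer genes, and Rab5b, Rab11b, Rab14, Rab21 and Rab22a of the early and recycling endosomes. The 15 gained at E17.5 included Rab3c, Rab3d, Rab11fip4, Vps11 and Vps28.

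Most peaks of the members lay in 3' UTRs. Of 226 peaks with their midpoint in an exon, 161 lay in the 3' UTR (71.2%, 95% exact Clopper-Pearson interval 64.9 to 77.0), 47 in the CDS, 5 in the 5' UTR and 13 in exons of noncoding isoforms. Over all protein-coding genes the 3' UTR share was 56.7%. At E11.5 it was 73.1% for members (19 of 26 peaks, interval 52.2 to 88.4) against 44.4% for all genes. For E13.5 the values were 72.2% (26 of 36, 54.8 to 85.8) against 55.7%, and for E15.5 71.8% (74 of 103, 62.1 to 80.3) against 60.4%. The E17.5 list gave 68.9% (42 of 61, 55.7 to 80.1) against 59.5%. The members' share thus moved little between days, while that of all genes was lowest at E11.5. The values of all genes at E13.5 and E17.5 lie inside the members' intervals, and those at E11.5 and E15.5 outside. The intervals cover counting error of peaks only, and peaks of 1 gene share its RNA. In another setting a peak was put in the CDS wherever it touched one, in place of the midpoint. The members' share was then 52.8%, 62.5%, 58.5% and 58.2% by day, and that of all genes 33.3%, 43.1%, 46.9% and 44.8%. That setting counts all 36, 40, 118 and 67 member peaks by day, those with their midpoint outside exons included. The fall on each day therefore does not come from the CDS rule alone, since the base is larger too.

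By family, 91 of 125 exonic peaks of Rab genes lay in the 3' UTR (72.8%), 13 of 19 of Arl genes, 9 of 11 of Arf genes, 29 of 36 of Snx genes (80.6%) and 19 of 35 of Vps genes (54.3%, interval 36.6 to 71.2). Vps genes had 13 CDS peaks, in Vps16, Vps25, Vps28, Vps33b, Vps37b, Vps37d and Vps72; those of Vps25 cannot be told apart from Ramp2, and 4 were those of the chromatin gene Vps72. Every peak of 38 members lay in the 3' UTR, and 71 members had at least 1 peak there. Peaks in the 5' UTR were found in Rab6b (E15.5 and E17.5), Rab7 (E13.5 and E15.5) and Snx32 (E15.5). Another 35 of the 261 peaks (13.4%, against 16.8% over all protein-coding genes) touched an exon but had their midpoint outside exons. At E11.5 these made up 27.8% (10 of 36 peaks), against 19.7% over all protein-coding genes that day. Vps4a, Vps13c, Vps45 and Vps50 were listed through such peaks alone.

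**Figure D3:**
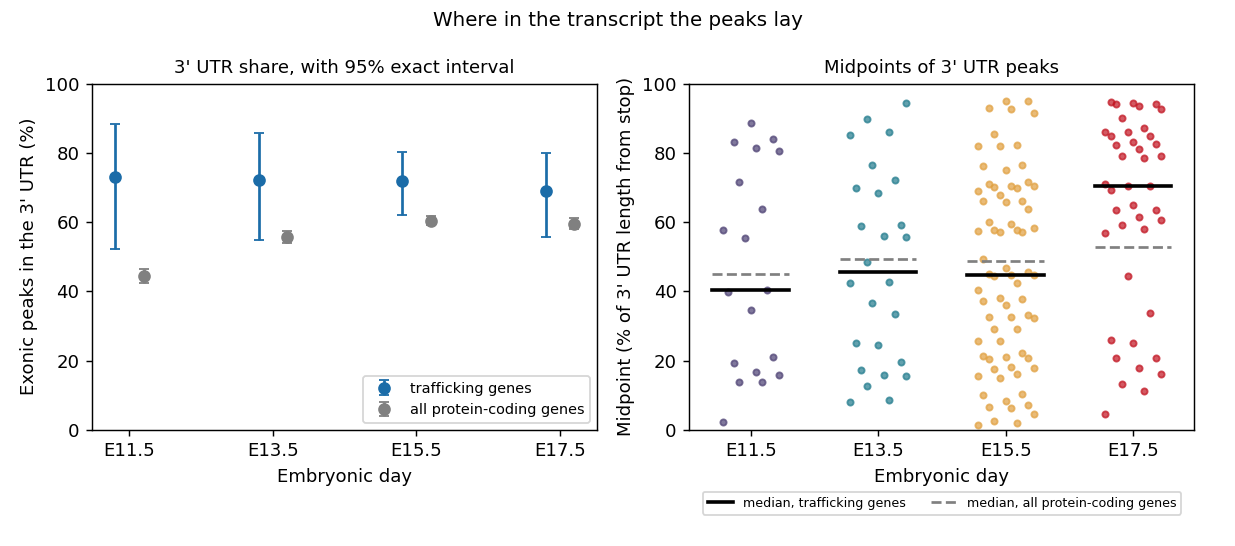
Left: share of exonic peaks in the 3' UTR (percent, with 95% exact intervals over peaks) for the members and for all protein-coding genes by day. Right: midpoint of each 3' UTR peak of the members as percent of the 3' UTR length, with the median of the members (black line) and of all protein-coding genes (dashed); the members' median moves from 44.7% at E15.5 to 70.5% at E17.5.

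Within the 3' UTR, peaks of E17.5 lay further from the stop codon than those of the other days. The median midpoint stood by day at 40.5% (19 peaks), 45.5% (26), 44.7% (74) and 70.5% (42) of the 3' UTR length; over all protein-coding genes it was 44.9%, 49.4%, 48.7% and 52.9%. The first 50% of the 3' UTR held 10 of 19, 14 of 26, 42 of 74 and 11 of 42 peaks in that order. At E17.5 that is 26.2% (interval 13.9 to 42.0), against 46.9% over all protein-coding genes. The share in the first 50% was itself not a planned measure. With 1 peak per gene, an alternative added after the pattern had been seen, it was 9 of 32 at E17.5 (28.1%). Of 19 members with a 3' UTR peak at both E15.5 and E17.5, the strongest lay further along at E17.5 in 13. In 5 of these (Rab1a, Rab3a, Rab11a, Snx3 and Vps25) the strongest peaks of both days overlapped. Of the members whose strongest peaks did not overlap, 8 had theirs further along at E17.5, among them Rab7, Rab2b, Snx10, Snx11 and Vps26c. The other 6 did not (Rab2a, Rab35, Rab40c, Snx15, Snx27 and Vps37b). In Rab18, Rab40c and Snx27 other pairs of 3' UTR peaks of both days did overlap. In Snx10 the midpoint moved from 44.9% to 90.2% of the 3' UTR, and in Rab7 the strongest peak moved from 32.3% to 79.0%. Snx15 went the other way, from 57.8% to 17.99%. Shifts of this kind compare 1 pair of lists with another and were not tested, and the use of other 3' ends was not measured.

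In 88 of the 261 member peaks (33.7%, interval 28.0 to 39.8, against 29.9% over all protein-coding genes) the same bases were touched by a peak of another day. By day the share was 30.6%, 50%, 26.3% and 38.8%, against 27.9%, 36.6%, 26.0% and 32.2%. These made 38 positions in 30 members, of which 32 were covered on 2 days, 5 on 3 days (in Arl8a, Rab2a, Rab3a, Rab18 and Snx3) and 1 on 4 days (Rab11a). In Rab11a the 4 peaks were 51, 140, 66 and 150 bp wide by day, all with midpoints between 81.9% and 85.1% of its 3' UTR, and E15.5 had another peak nearer to the stop codon. In Rab3a the 3 overlapping peaks were 173, 245 and 183 bp wide, and all 173 bases of the E13.5 peak lay under the others.

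Other 3' UTRs were covered at different places on different days. In Rab2b the peaks of E11.5 and E15.5 shared 50 bases (midpoints at 57.7% and 57.3% of the 3' UTR), and those of E13.5 and E17.5 shared 48 bases (94.4% and 94.3%). In Rab7 the peaks of E13.5 and E15.5 overlapped at 2 places in the first part of the 3' UTR, those of E11.5 and E17.5 overlapped near its end, and the 2 pairs had no base in common. Rab35 had overlapping peaks of 251 and 266 bp at E13.5 and E17.5, while its E15.5 peak lay at 94.9% of the 3' UTR. Vps37b shared 192 bases between E13.5 and E17.5, and its E15.5 peak lay further on. Rab21 shared 76 bases between E13.5 and E15.5, and its E11.5 peak lay beyond them. Thus in Rab2b, Rab7, Rab35 and Vps37b the days that shared a position were not always neighbours in time.

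**Figure D4:**
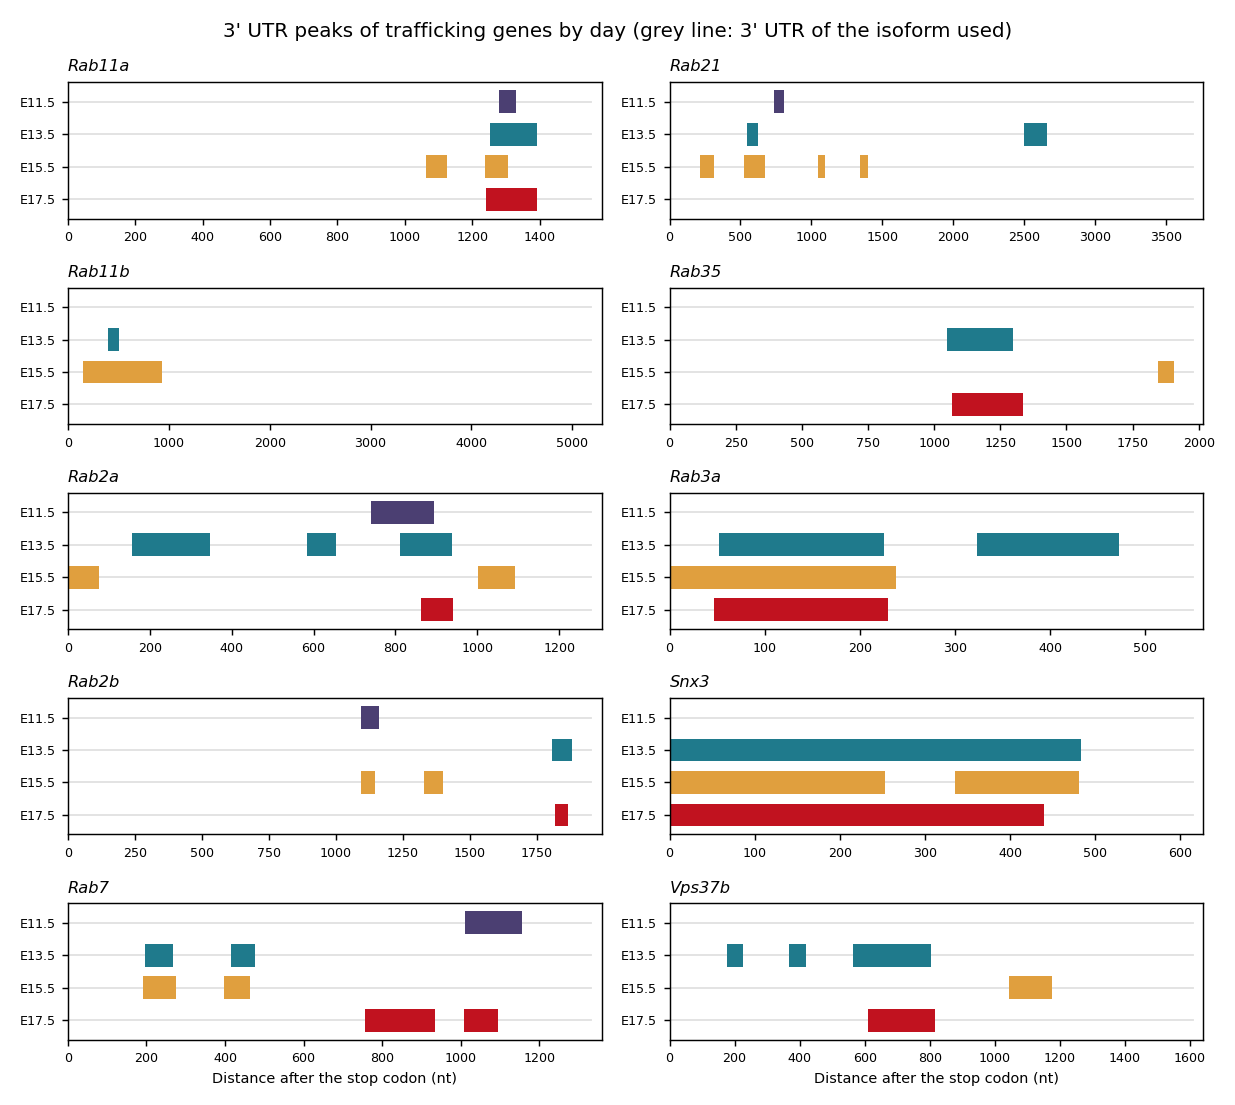
Peaks in the 3' UTR of 10 members listed on 3 or 4 days; the x axis is the distance in nucleotides after the stop codon along the isoform used (grey line), each row is a day and each bar a peak to scale. Bars line up on all 4 days in Rab11a, on the 3 later days in Rab3a and Snx3, in Rab2b on E11.5 with E15.5 and on E13.5 with E17.5, and in Rab7 on E13.5 with E15.5 and on E11.5 with E17.5.

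Base composition of the member peaks was close to that of other genes' peaks. For 156 3' UTR peaks of at most 300 bases on 1 exon the median GC content was 47.6% (19.4% to 67.3%), against 47.0% over 8523 such peaks of all protein-coding genes, and the median folding energy per base was -0.199 against -0.191 kcal/mol. For 39 CDS peaks it was 55.1% against 54.0%, with -0.228 against -0.211 kcal/mol per base. Longer stems between distant parts of a transcript cannot be seen in such short stretches. By day the median GC of 3' UTR peaks ran from 46.0% at E15.5 to 50.6% at E17.5.

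Genes that deliver, switch or use these GTPases were listed on some day in a share near that of the members. Of 177 such genes without a member's symbol, 111 (62.7%, against 30.1% of all protein-coding genes) had a peak on some day. By day these were 29, 35, 81 and 66 genes, or 16.4%, 19.8%, 45.8% and 37.3%, against 9.06%, 11.7%, 19.8% and 13.5% of all protein-coding genes, whose shares also stand behind the lists that follow. Among 36 genes of Rab delivery, activation and inactivation, Rab3gap1 included, 20 were listed (7, 5, 13 and 10 by day), among them Tbc1d14 on all 4 days. Of 35 effectors and tethers 19 were listed, by day 1, 7, 11 and 14. Of 31 regulators and effectors of Arfs (exchange factors, GTPase-activating proteins, the Gga adaptors and Arfip1 and Arfip2) 25 were listed, by day 8, 5, 21 and 14, with Smap2 on all 4 days. So 14 of these genes were listed at E17.5, when no Arf gene was, but with 6 Arf genes this contrast rests on few genes and was not tested. Partners of ESCRT and HOPS without a Vps symbol came to 20 of 29 (6, 8, 14 and 9), and coats and SNAREs to 28 of 47 (7, 10, 23 and 19).

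Coat and SNARE genes listed on all 4 days were Ap2m1, the cargo-binding subunit of the clathrin adaptor AP-2, Sec31a of the COPII coat, Stx4a and Vamp2, the synaptic vesicle SNARE. The 3' UTR peaks of Vamp2 ranked 813, 1382, 3643 and 897 by day at best. The median exonic length of the 177 genes was 5941 bp, above that of the members.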

How the data were processed

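Peak lists were read for STAU2 RIP and input libraries of mouse cortex at 4 embryonic days (3 of each kind a day). Per the labels' protocols, RNA was precipitated with a mouse anti-STAU2 antibody, treated with DNase and made into libraries with a kit that keeps the strand. Tools in the submitters' processing notes are Cufflinks 2.2.1, bedtools 2.17.0, TopHat and TopHat2 2.0.9, with mm10 as the build; which caller and test made the peaks is not given in the sources used here. For each peak the authors deposited a score, a signal, a p-value and a q-value, without column names; the largest q-value was 0.0100. The deposited p-values were used to rank peaks within a day over both strands, the signal was printed only as the authors' value, and the score was not used. No total of reads is given, so depth is unknown.

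Genes were GENCODE vM21 models, counted by symbol. A peak was assigned to each protein-coding gene with an exon on its strand sharing 1 bp or more; of 302 peaks over exactly 1 member, 282 (93.4%) lay on its strand. The part was read at the midpoint, in the order CDS, 3' UTR, 5' UTR, noncoding exon. Intervals are exact Clopper-Pearson intervals at 95%. Sequences came from GENCODE transcripts and were folded with RNAfold 2.7.2 up to 300 bases. Python 3.11.15 with numpy 2.4.6 and scipy 1.17.1 was used, and the assignment was checked on simulated peaks. The members and gene lists were chosen with earlier results of these data known. Named are members with peaks on 3 or 4 days, the 6 strongest of each day, members with recurrent positions and members of a described list; the 4 genes of coats and SNAREs, Tbc1d14 and Smap2 were named for their peaks on all days.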

Additional observations from a re-analysis of the deposited data

How the results depend on the processing

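Of 73 values recomputed under another setting, 65 stayed within the set margins (within 1.5 times for a count) and 8 moved. With only the stronger 50% of each day's peaks, by the authors' p-value, the members listed by day were 16, 14, 43 and 30. That is 9.94%, 8.70%, 26.7% and 18.6%, against 5.17%, 6.92%, 12.6% and 8.38% of all protein-coding genes. The members' share at E13.5 thus came closest to that of all genes. In this setting 0 members were listed on all 4 days, and the same share over all protein-coding genes is not available. This setting tests fewer peaks by construction. With lists of equal length, 5871 peaks a day, the members gained from E15.5 to E17.5 rose from 15 to 23 and those lost went from 34 to 26. The same steps over all protein-coding genes are not available for equal lists. The 3' UTR share by any overlap was 52.8%, 62.5%, 58.5% and 58.2% by day (midpoint 73.1%, 72.2%, 71.8% and 68.9%). Its base also holds the peaks with their midpoint outside exons, which the midpoint share leaves out. Recurrent peaks came to 27.2% when at least 50% of a peak had to be shared, against 20.9% over all protein-coding genes. In the main setting these were 33.7% and 29.9%. The share of members with a peak on any day ran from 42.9% to 56.5% over the alternatives, and that of all protein-coding genes from 21.6% to 30.1%. With at least 50% of a peak in exons, 86 members were left, without Vps4a, Vps13c, Vps45 and Vps50. No paired analysis was possible because the lists hold no value per replicate, and for the same reason no replicate could be left out. Depth, the spread between litters and the direction of each peak are not known from the lists.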

Other observations

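Some members had peaks on their own strand that lay wholly in introns. There were 21 such peaks in 10 members, 12 at E11.5, 9 at E15.5 and none at E13.5 or E17.5. The same count over all protein-coding genes is not available, so neither it nor its spread over days can be read as a trait of the members. Rab4b had 4 of them at E15.5, Snx13 had 4 and Arl8b 3 at E11.5, and Vps54 had one at E11.5 with rank 64 of 6530, better than any of its exonic peaks. Snx24 was listed in this way alone. Snx13 thus had intronic peaks at E11.5 and a 3' UTR peak at E17.5.

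Another 13 peaks lay over 10 members on the opposite strand, a count with no share over all protein-coding genes to set beside it. Rab9, Snx3 and Vps29 had 2 each. Vps29, a retromer subunit that had no exonic peak, had them at E15.5 and E17.5, where the exons of Fam216a lie on that strand. The Rab9 peak of E13.5 ranked 388 of 5871.

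Processed pseudogenes of 3 Rab genes had peaks of their own: Rab7-ps1 at E11.5, E13.5 and E15.5, Rab11b-ps2 at E11.5 and E15.5, and Rab9b-ps1 at E15.5 (rank 1640 of 10265). Rab9b itself had no exonic peak.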
